A study of Mus with 18 samples.

Results

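The genes described here are 9 members of the interleukin-1 family and tumor necrosis factor system, chosen by their Ensembl IDs among the 55416 gene IDs of the deposited tables: Il1a (ENSMUSG00000027399), Il1b (ENSMUSG00000027398), Il1rn (ENSMUSG00000026981), Il1r1 (ENSMUSG00000026072), Il1r2 (ENSMUSG00000026073), Il1rl1 (ENSMUSG00000026069), Il33 (ENSMUSG00000024810), Il18 (ENSMUSG00000039217) and Tnf (ENSMUSG00000024401). All 9 IDs were found in the tables. Their RNA was measured in mouse lens epithelial cells (LECs), the cell layer that lines the front of the lens capsule. Capsules were taken immediately (0 h) or 6 h after the lens fiber cells were removed, a mouse model of cataract surgery. The time after this surgery is abbreviated PCS (post cataract surgery).

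There were 18 RNA sequencing libraries in 6 groups of 3, each made from 5 pooled lens capsules of mice aged 3 to 5 months. The labels give C57BL/6 as the strain of every library, while the Egr1KO line was obtained as a stock of mixed background, so any remaining difference of background cannot be told apart from the Egr1 genotype. Wild type (WT) capsules, capsules of Egr1KO mice (a systemic knockout of the transcription factor gene Egr1) and capsules of FosBcKO mice (a floxed Fosb allele deleted by the MLR10 cre transgene, which a modified alpha-A crystallin promoter drives in the lens) were each taken at 0 h and at 6 h PCS. The cre transgene was obtained on an FVB/N background and backcrossed to C57BL/6. Any effect of the transgene itself or of remaining background cannot be told apart from the loss of FosB either. All groups had the same operation, on 1 eye first and on the other 6 h later, with both capsules of an animal taken at once, so the 0 h capsules came from animals whose other eye had been injured. Fewer cells of a type and less RNA per cell cannot be told apart in such pooled tissue.

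Library depth was 9609295 to 13871592 read pairs assigned to genes. Between 19121 and 25999 gene IDs had at least 1 count per library. Read pairs outside annotated genes made up 8.03% to 20.89% of a library at 0 h and 20.03% to 30.47% at 6 h, so this share moved with time beside every change over time below, and its part in those changes was not tested. Of the 6 h libraries, Egr1KO replicate 1 lay nearest to the 0 h libraries on the first principal component of all tested genes (a score of -4.7, against 23.6 to 115.6 for the other 6 h libraries and -90.3 to -39.4 at 0 h). Cell type markers and the counts of Egr1 and Fosb are not analysed here, since the deposited tables do not pair IDs with names, so the genotype labels were not checked by the targeted genes.

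Interleukin-1 alpha and interleukin-1 beta are the classic ligands of the receptor encoded by Il1r1, which signals through MyD88 and IRAK kinases to NF-kappaB and MAP kinases and so induces cytokines and chemokines. The pathway holds its own brakes: Il1rn encodes a secreted receptor antagonist, and Il1r2 a decoy receptor that binds interleukin-1 without signaling. Interleukin-33, which is stored in the nucleus of barrier epithelial cells and acts as an alarmin when released, binds ST2, the product of Il1rl1, while interleukin-18 uses a receptor of its own. Tumor necrosis factor is not a member of the family, but its receptors lead to NF-kappaB as well. In the RefSeq annotation of GRCm38.p6, Il1a lies next to Il1b, Il1r2 next to Il1r1, and Tnf between Ltb and Lta. The files do not tell which build they were counted on (the labels and the methods of the study name different ones), so no position is given. No sequence is shown either, as the values here are counts per gene.

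Levels are given as CPM (counts scaled by the read pairs assigned to genes in that library), with no correction for gene length, so they compare a gene between libraries and not 1 gene with another. A gene was called differentially expressed when its false discovery rate (FDR, Benjamini-Hochberg over all genes tested) was at most 0.05 and its change was over 2-fold. Several patterns ran through the 9 genes. Il1a and Il1r1 were higher at 6 h PCS than at 0 h in all 3 genotypes, and their 9 libraries at 6 h did not overlap with their 9 at 0 h. Il1b and Il33 showed no called change in WT, and at 6 h PCS both were higher in FosBcKO than in WT, as was Il1r1. Tnf, Il1r2, Il1rn and Il1rl1 stayed near the limit of detection, with most of their counts at 6 h. In WT, however, Il1r2 had 5 counts at 0 h against 9 at 6 h.

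**Figure D1:**
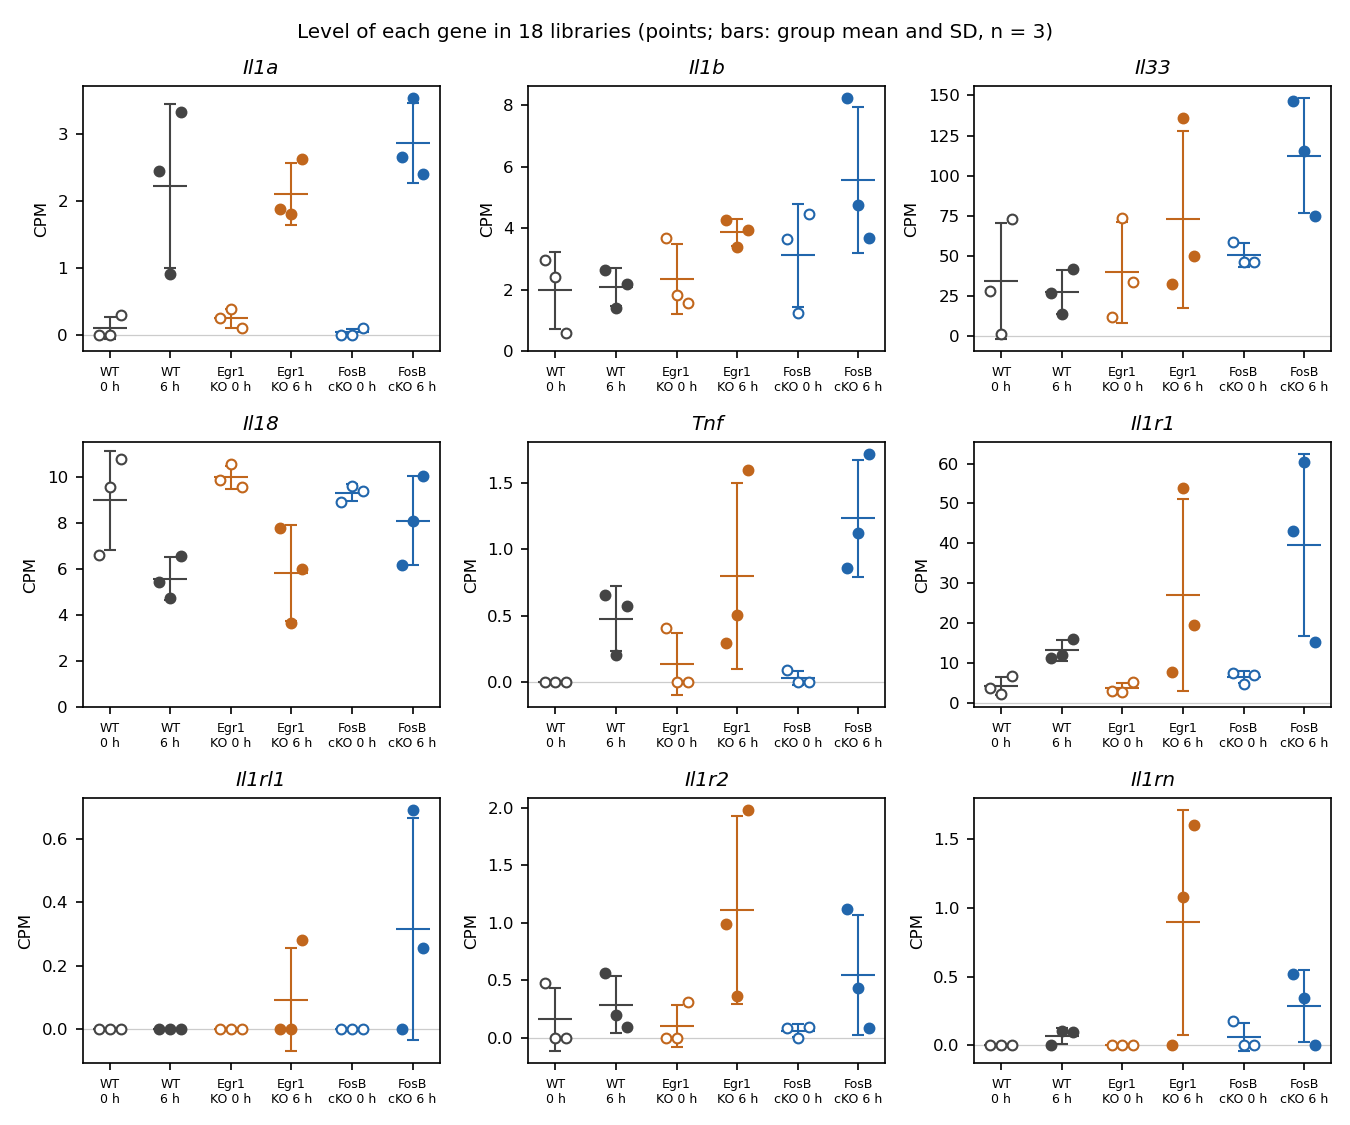
Level of each of the 9 genes in the 18 libraries, in CPM on linear axes, by genotype and time (open points 0 h, filled points 6 h, horizontal bars the mean of 3 libraries, error bars the SD). Il1a and Il1r1 are higher in every 6 h library than in any 0 h library, the 3 FosBcKO libraries hold Il33 between 75.1 and 146.7 CPM at 6 h, and Il1rl1 is at 0 in 15 of 18 libraries.

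Among the ligands, Il1a was nearly silent in the capsules at 0 h and present in every library at 6 h PCS. In WT at 0 h it had 0, 0 and 0.292 CPM (0, 0 and 3 counts), and at 6 h PCS 2.45, 0.907 and 3.34 CPM. In Egr1KO it had 0.245, 0.384 and 0.104 CPM at 0 h and 1.88, 1.80 and 2.64 CPM at 6 h. In FosBcKO it had 0, 0 and 0.0970 CPM at 0 h and 2.66, 3.54 and 2.41 CPM at 6 h. The highest 0 h library, 0.384 CPM, lay below the lowest 6 h library, 0.907 CPM, so the times did not overlap in any genotype.

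The rise of Il1a passed the edgeR quasi-likelihood F-test in Egr1KO (log2 fold change 3.11 ± 0.70 SE, FDR = 0.0194) and in FosBcKO (6.06 ± 1.01, FDR = 0.00511). In WT the gene fell under the filter on low counts and had no test. From its summed counts, 3 at 0 h and 70 at 6 h, the ratio in WT was 24.1, with an exact 95% interval of 7.90 to 119.4 that covers counting error only. In FosBcKO, 1 count at 0 h stood against 100 at 6 h, a ratio of 89.4 (15.7 to 3567), so the size of the FosBcKO fold change rests on a single count and its fitted value depends on the prior count. Over all 18 libraries and the mean of the genotypes, Il1a rose by 4.49 ± 0.58 on the log2 scale (FDR = 9.21e-06). The gene passed the filters through its 6 h libraries alone. The Egr1KO call was lost when any one of the 0 h replicates (FDR = 0.084, 0.0591 and 0.101 without replicates 1, 2 and 3) or 6 h replicate 3 (FDR = 0.0829) was left out.

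Il1b, whose product is the secreted form of interleukin-1 made mainly by activated myeloid cells, had counts in every library. In WT it was at 2.97, 2.40 and 0.584 CPM at 0 h and 2.64, 1.41 and 2.19 CPM at 6 h PCS. In Egr1KO it was at 3.67, 1.82 and 1.56 CPM at 0 h and 4.26, 3.39 and 3.96 CPM at 6 h. In FosBcKO it was at 3.66, 1.24 and 4.46 CPM at 0 h and 8.24, 4.75 and 3.70 CPM at 6 h. The times overlapped in each genotype.

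No change of Il1b with time was called. Its log2 fold change was -0.05 ± 0.64 in WT (FDR = 0.962), 0.77 ± 0.49 in Egr1KO (FDR = 0.283) and 0.80 ± 0.53 in FosBcKO (FDR = 0.294) by the quasi-likelihood F-test. The mean over genotypes was 0.52 ± 0.33 (FDR = 0.201).

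Il33 varied widely between libraries of a group. In WT it was at 28.2, 1.42 and 72.9 CPM at 0 h and 26.7, 14.0 and 41.9 CPM at 6 h PCS. In Egr1KO it was at 11.8, 73.8 and 34.0 CPM at 0 h and 32.6, 136.0 and 49.8 CPM at 6 h. In FosBcKO it was at 59.0, 46.0 and 46.2 CPM at 0 h and 146.7, 115.5 and 75.1 CPM at 6 h. WT at 0 h replicate 2 had the lowest value of all 18 libraries and Egr1KO at 6 h the widest range in CPM, and FosBcKO was the single genotype whose times did not overlap.

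In FosBcKO the rise of Il33 was called (1.16 ± 0.23, FDR = 0.00945). The same test gave 0.90 ± 0.67 in Egr1KO (FDR = 0.363) and -0.42 ± 1.05 in WT (FDR = 0.795). The WT value was -1.0 without 0 h replicate 2 (FDR = 0.167). The mean over genotypes was 0.56 ± 0.51 (FDR = 0.382). In FosBcKO the call was lost when the spread was estimated from all 18 libraries (FDR = 0.387), and the change was under 2-fold without 6 h replicate 1 (0.93, FDR = 0.0286). None of these tests paired libraries. With the replicate number as a block, Il33 was called in Egr1KO, its FosBcKO call stayed and its WT sign changed (see the last section).

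Il18 had a lower mean level at 6 h PCS than at 0 h in all 3 genotypes, though no change was called. In WT it was at 6.61, 9.60 and 10.8 CPM at 0 h and 5.47, 4.74 and 6.58 CPM at 6 h PCS, so the lowest 0 h value lay just above the highest 6 h value. In Egr1KO the values were 9.87, 10.6 and 9.57 CPM at 0 h and 7.82, 3.68 and 6.03 CPM at 6 h, again without overlap. In FosBcKO they were 8.92, 9.64 and 9.41 CPM at 0 h and 6.18, 8.12 and 10.1 CPM at 6 h, and here the times overlapped.

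The log2 fold change of Il18 was -0.80 ± 0.29 in WT (FDR = 0.0757), -0.71 ± 0.35 in Egr1KO (FDR = 0.177) and -0.19 ± 0.29 in FosBcKO (FDR = 0.661), none of them called. Over all 18 libraries the mean change was -0.56 ± 0.17 with FDR = 0.0126 by the quasi-likelihood F-test, past the FDR threshold but under 2-fold. That mean stayed between -0.70 and -0.47 when each library was left out in turn, with FDR from 0.00253 to 0.0293.

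Tnf was detected in 2 of 9 libraries at 0 h and in 9 of 9 at 6 h PCS. In WT it had 0, 0 and 0 counts at 0 h and 7, 2 and 6 counts at 6 h (0.660, 0.202 and 0.572 CPM). In Egr1KO it had 5, 0 and 0 counts at 0 h and 3, 7 and 17 at 6 h. In FosBcKO it had 1, 0 and 0 counts at 0 h and 10, 13 and 20 at 6 h (0.859, 1.12 and 1.72 CPM). Egr1KO at 0 h replicate 1, at 0.408 CPM, lay above 6 h replicate 1 of that genotype, at 0.297 CPM, and was the only 0 h library to reach the 6 h range.

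Within single genotypes Tnf fell under the filter on low counts and had no test as designed. By the quasi-likelihood F-test with other filters it was called in FosBcKO over time. The rise was 4.86 with at least 10 counts in 3 libraries (FDR = 0.0178) and 4.85 without a filter (FDR = 0.0195). Without a filter it was not called in WT or Egr1KO. The 0 counts of WT at 0 h allow a level of up to 0.0938 CPM (3 counts over the group). Against this floor the 15 counts at 6 h are 5.15-fold higher, a value that takes the 6 h counts as exact. In FosBcKO the ratio of summed counts was 38.5 (1 count against 43, 95% interval 6.54 to 1553). Over all 18 libraries the mean rise was 4.21 ± 0.86 on the log2 scale and was called (FDR = 0.000775). As with Il1a, the filter was passed through the 6 h libraries, and the fitted size depends on the prior count.

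Il1r1, the signaling receptor, rose after injury in every genotype. In WT it was at 3.73, 2.22 and 6.81 CPM at 0 h and 11.2, 12.1 and 16.1 CPM at 6 h PCS. In Egr1KO it was at 3.02, 2.78 and 5.20 CPM at 0 h and 7.82, 54.0 and 19.5 CPM at 6 h. In FosBcKO it was at 7.5, 4.67 and 6.98 CPM at 0 h and 43.0, 60.5 and 15.3 CPM at 6 h. Every 6 h library, from 7.82 CPM, lay above every 0 h library, up to 7.5 CPM, although the knockout 6 h libraries spread over a wide range.

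By the quasi-likelihood F-test the rise of Il1r1 was called in WT (1.52 ± 0.39, FDR = 0.0256), in Egr1KO (2.90 ± 0.66, FDR = 0.0216) and in FosBcKO (2.65 ± 0.52, FDR = 0.0153). The mean over genotypes was 2.36 ± 0.36 (FDR = 8.49e-05), and this call held without any single library (FDR at most 0.000381). The calls within genotypes depended on single libraries. In WT the call was lost without 0 h replicate 1 (FDR = 0.0896), 0 h replicate 2 (FDR = 0.0576) or 6 h replicate 1 (FDR = 0.0598), and with the spread of all 18 libraries (FDR = 0.076). In Egr1KO it was lost without any one of the 0 h replicates (FDR = 0.0891, 0.077 and 0.0621 without replicates 1, 2 and 3) or 6 h replicate 3 (FDR = 0.056), and without a filter (FDR = 0.122). In FosBcKO it was lost without 0 h replicate 2 (FDR = 0.0555), 0 h replicate 3 (FDR = 0.0565) or 6 h replicate 1 (FDR = 0.0605).

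The receptor for interleukin-33 was barely detected. Il1rl1 had no count in 15 of 18 libraries, and its counts were 3 in Egr1KO at 6 h replicate 3 and 8 and 3 in FosBcKO at 6 h replicates 2 and 3. The 0 counts of WT at 0 h and at 6 h allow levels of up to 0.0938 and 0.0967 CPM. Against the 3 count floor at 0 h, FosBcKO was 3.28-fold higher at 6 h, with its 11 counts taken as exact.

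The decoy receptor and the receptor antagonist were low as well. Il1r2 had 5, 0 and 0 counts in WT at 0 h and 6, 2 and 1 at 6 h. It had 0, 0 and 3 counts in Egr1KO at 0 h and 10, 5 and 21 at 6 h, a ratio of 11.2 (95% interval 3.54 to 56.8). It had 1, 0 and 1 counts in FosBcKO at 0 h and 13, 5 and 1 at 6 h, a ratio of 8.49 (2.05 to 75.2). The WT libraries and the FosBcKO libraries overlapped between the times, while those of Egr1KO did not.

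Over all 18 libraries the mean rise of Il1r2 was 2.35 ± 0.86 on the log2 scale and was called (FDR = 0.0297). The gene passed the filter through its 6 h libraries and had few counts, and leaving out any one of 8 libraries ended the call. These were WT at 0 h replicates 2 and 3 (FDR = 0.0569 and 0.0542), WT at 6 h replicate 1 (FDR = 0.0876), Egr1KO at 0 h replicates 1 and 2 (FDR = 0.0585 and 0.0576), Egr1KO at 6 h replicate 3 (FDR = 0.0722), FosBcKO at 0 h replicate 2 (FDR = 0.0605) and FosBcKO at 6 h replicate 1 (FDR = 0.0805).

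Il1rn, the antagonist, had 0, 0 and 0 counts in WT at 0 h and 0, 1 and 1 at 6 h. In Egr1KO it had no count at 0 h and 0, 15 and 17 counts at 6 h, so replicate 1 had none while replicates 2 and 3 held 1.08 and 1.60 CPM. In FosBcKO it had 2, 0 and 0 counts at 0 h and 6, 4 and 0 at 6 h. Summed over replicates, Egr1KO was 9.95-fold higher at 6 h than the 3 count floor at 0 h, with the 6 h counts taken as exact. The gene passed none of the filters on low counts in the tests as designed.

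Set against all genes, the number of these genes called over time was 1 of 4 tested in WT, where 17.1% of 15440 genes tested were called in either direction. It was 2 of 5 in Egr1KO, where 12% of 14586 genes were called, and 3 of 5 in FosBcKO, where 13.1% of 15475 were called. In the mean over genotypes 4 of 7 were called, all higher, where 22.5% of 17469 genes were called. The 9 libraries at 6 h did not overlap with the 9 at 0 h for 2 of these 7 genes and for 10.9% of all genes tested. These shares give no support for a difference from all genes. Il1a, Tnf and Il1r2, which make 3 of the 4 calls in the mean and 1 of those in each knockout (Il1a), entered the tests only through the 6 h libraries in which they are high. The genes not tested were those with few counts, so the tested genes do not stand for all 9.

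**Figure D2:**
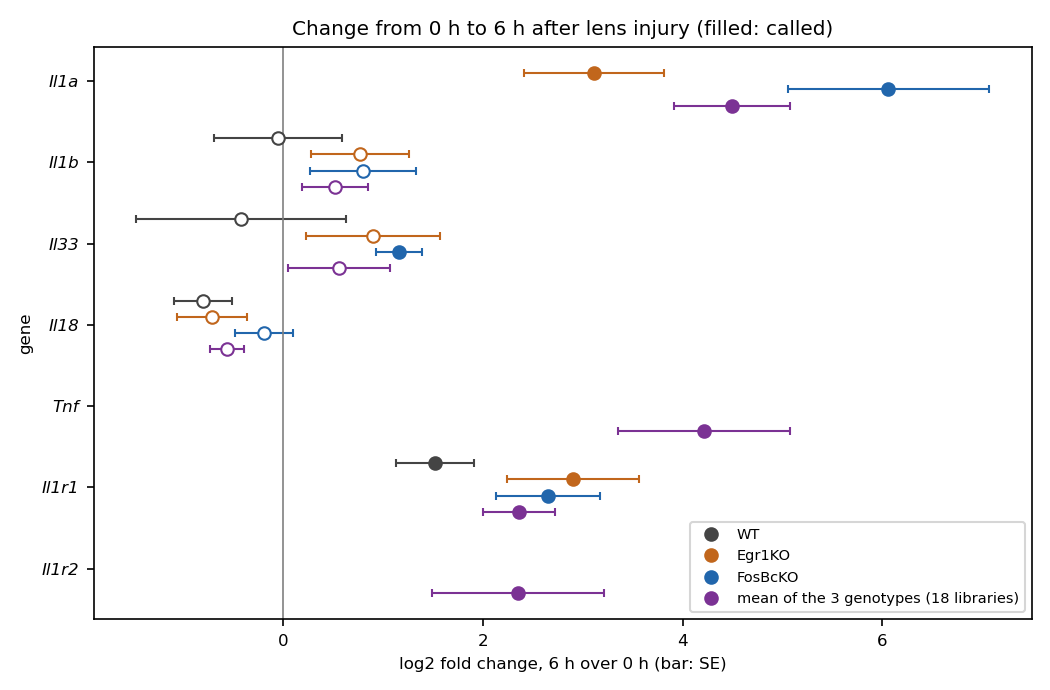
Change from 0 h to 6 h PCS of the 7 genes tested in at least 1 fit, as log2 fold change (horizontal axis, bars the SE) within each genotype and as the mean of the 3 genotypes; filled points were called. Il1r1 is filled in every genotype, Il1a in both knockouts and in the mean (it was not tested in WT), and Il18 lies left of 0 throughout, from -0.80 to -0.19.

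The study asked whether the injury response of LECs depends on Egr1 and on FosB, which the next comparisons address for these genes. At 0 h, immediately after the fiber cells were removed, no difference was called between either knockout and WT by the edgeR exact test. For Egr1KO the 4 tested genes had log2 differences from WT of -0.17 ± 0.47 (Il1r1) to 0.26 ± 0.64 (Il1b), and 0 of 4 had an unadjusted p under 0.05. For FosBcKO they were 0.05 ± 0.27 (Il18) to 0.65 ± 0.68 (Il1b), again with 0 of 4 at an unadjusted p under 0.05. By DESeq2 and by the quasi-likelihood F-test the number called was 0 too. Among all genes, 0.41% were called for Egr1KO and 0.295% for FosBcKO. The SE for Il33, 1.38 and 1.19, was wide, so differences of several-fold would not be detectable at 0 h.

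At 6 h PCS, FosBcKO had more Il33, Il1r1 and Il1b RNA than WT. Il33 was higher by 2.18 ± 0.37 on the log2 scale (FDR = 2.82e-06, edgeR exact test), with all 3 FosBcKO libraries (75.1 to 146.7 CPM) above all 3 WT libraries (14.0 to 41.9 CPM). Il1r1 was higher by 1.75 ± 0.45 (FDR = 0.00715), with FosBcKO replicate 3 at 15.3 CPM below the highest WT library at 16.1 CPM. Il1b was higher by 1.52 ± 0.44 (FDR = 0.0302), with 3.70 to 8.24 CPM in FosBcKO against 1.41 to 2.64 CPM in WT. The untested Tnf also did not overlap, at 0.859 to 1.72 CPM against 0.202 to 0.660 CPM.

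The other tested genes showed no called difference between FosBcKO and WT at 6 h. Il1a differed by 0.52 ± 0.53 (FDR = 0.76) and Il18 by 0.68 ± 0.32 (FDR = 0.355). Thus 3 of 5 tested genes were called, where 5.41% of 16155 genes were. The libraries did not overlap for 2 of 5, where this held for 21.8% of all genes tested.

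These FosBcKO calls were not equally firm. The Il33 call held without any single library (FDR at most 0.00106). It was lost in the quasi-likelihood fit of all 18 libraries (FDR = 0.267), as were those of Il1r1 (FDR = 0.159) and Il1b (FDR = 0.205). That fit changed the test and the filter as well as the spread, so the losses cannot be assigned to the spread alone. The Il1r1 call was lost without WT replicate 1 (FDR = 0.0922), WT replicate 2 (FDR = 0.0603) or FosBcKO replicate 2 (FDR = 0.129), and with the quasi-likelihood F-test (FDR = 0.0971). The Il1b call was lost without any single library other than FosBcKO replicate 3, with FDR = 0.068, 0.177 and 0.143 without WT replicates 1, 2 and 3 and 0.19 and 0.106 without FosBcKO replicates 1 and 2. It was also lost with the quasi-likelihood F-test (FDR = 0.133), without a filter (FDR = 0.121) and with scaling by library totals (FDR = 0.0949).

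For Egr1KO at 6 h PCS, none of the 5 tested genes was called by the exact test, and 3 had an unadjusted p under 0.05. By DESeq2 and by the quasi-likelihood F-test the number called was also 0 of 5, with 3 and 2 of them at an unadjusted p under 0.05. The log2 difference from WT was 1.60 ± 0.52 for Il33 (FDR = 0.166), 1.22 ± 0.56 for Il1r1 (FDR = 0.46) and 1.11 ± 0.45 for Il1b (FDR = 0.405). It was 0.16 ± 0.58 for Il1a and 0.30 ± 0.40 for Il18. Of all genes tested, 0.736% were called. The libraries did not overlap for 1 of the 5 genes, Il1b (3.39 to 4.26 CPM against 1.41 to 2.64 CPM), and for 16.9% of all genes tested.

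Egr1KO at 6 h replicate 1, the library nearest to the 0 h libraries, was the lowest of its group in Il33, Il1r1, Il1rn and Tnf. It was the highest of its group in Il1b and Il18 and lay between the others in Il1a and Il1r2. Without it, 3 genes were called higher in Egr1KO than in WT: Il33 by 1.95 (FDR = 0.00839), Il1r1 by 1.66 (FDR = 0.0117) and Il1rn by 4.35 (FDR = 0.0118). Il1rn had no main test. It entered this fit only through the Egr1KO libraries in which it was high, and the one left out had 0 counts of it. In that fit 1.14% of 16328 genes were called. Without Egr1KO replicate 2, the highest in both, the differences were smaller, 0.88 for Il33 (FDR = 0.255) and 0.34 for Il1r1 (FDR = 0.805). The Egr1KO differences at 6 h thus moved with single libraries. The 2 knockouts were compared with the same WT libraries, so their values are not independent of each other.

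**Figure D3:**
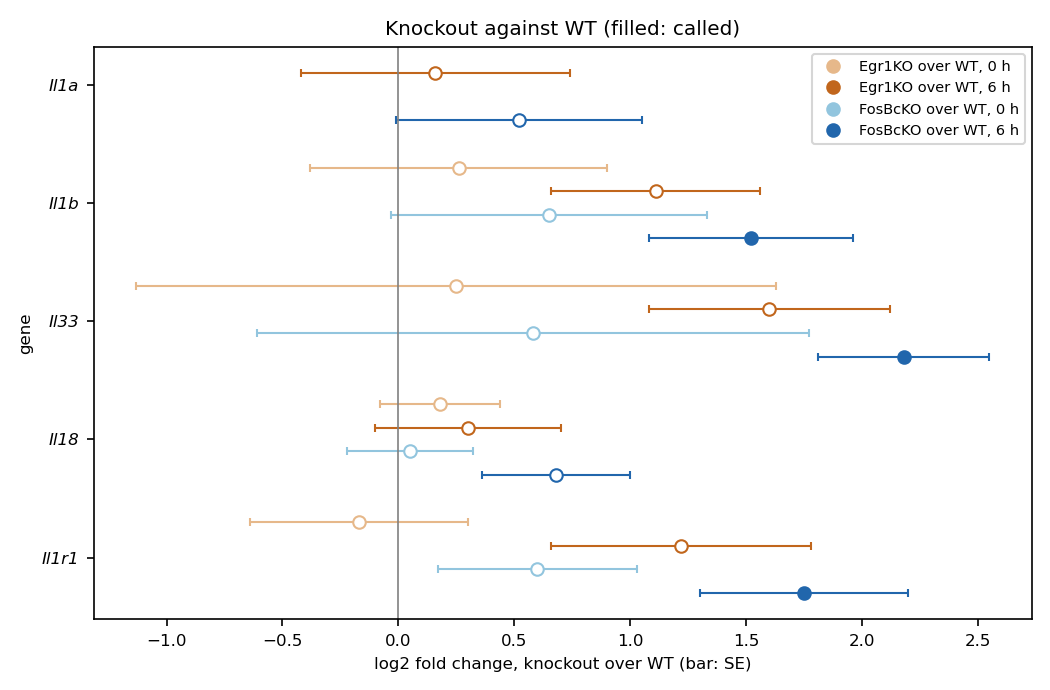
Difference of each knockout from WT at 0 h (light points) and at 6 h PCS (dark points) for the 5 genes tested, as log2 fold change (horizontal axis, bars the SE); filled points were called. The filled points are Il33, Il1r1 and Il1b in FosBcKO at 6 h, at 2.18, 1.75 and 1.52, and every tested gene lies right of 0 at 6 h in both knockouts with library scaling by TMM (Il1a in Egr1KO moved to -0.09 with scaling by library totals).

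Whether the response to injury itself differed between genotypes was tested as an interaction, the change over time in the knockout minus that in WT, over all 18 libraries. No gene of the 7 tested was called for either knockout, and 0 of 7 had an unadjusted p under 0.05. Of all 17469 genes the quasi-likelihood F-test called 0% for Egr1KO and 0% for FosBcKO, with 1141 and 1171 genes at an unadjusted p under 0.05. DESeq2 called 2 and 40 of all genes and 0 of the 7. For FosBcKO it gave no FDR to Il1a, Il1b, Il1r2 and Tnf, so these could not be called there. The interaction of FosBcKO was 1.52 ± 1.26 for Il33 (FDR = 0.854), 1.07 ± 0.85 for Il1r1 (FDR = 0.842) and 0.80 ± 0.81 for Il1b (FDR = 0.891). That of Egr1KO was 1.31 ± 1.26 for Il33 (FDR = 0.861), 1.36 ± 0.87 for Il1r1 (FDR = 0.823) and 0.80 ± 0.82 for Il1b (FDR = 0.868). Thus the higher 6 h levels in FosBcKO were called as levels, while a larger rise was not shown at this spread. The Il33 interaction rests in part on WT at 0 h replicate 2, without which it was 2.08 for FosBcKO (FDR = 0.667) and 1.89 for Egr1KO (FDR = 0.804).

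Il33 and Il1r1 varied together among libraries. Over the 18 libraries Pearson's r of their log2 CPM was 0.64, and 0.57 after the mean of each group was removed (0.49 to 0.66 with each library left out). Libraries high in both were FosBcKO at 6 h replicates 1 and 2 and Egr1KO at 6 h replicate 2. Il1r1 and Il18 ran opposite to each other, with r = -0.59 over all libraries and -0.55 within groups (-0.71 to -0.25 with each library left out). Il1b and Il33 had r = 0.21 over all libraries and -0.40 within groups (-0.54 to -0.04). Il1b and Il1r1 had r = 0.45 over all libraries and -0.13 within groups (-0.31 to 0.12). Il1a and Il1r1 had the highest r over all libraries, 0.79, and 0.21 within groups (0.03 to 0.39). Il1a and Il33 had r = 0.43 over all libraries and 0.47 within groups (0.21 to 0.58). Il1a and Il18 had r = -0.50 over all libraries and 0.39 within groups (0.30 to 0.50). These 18 points share their libraries, depth and groups, and the values describe some of 10 pairs of genes.

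**Figure D4:**
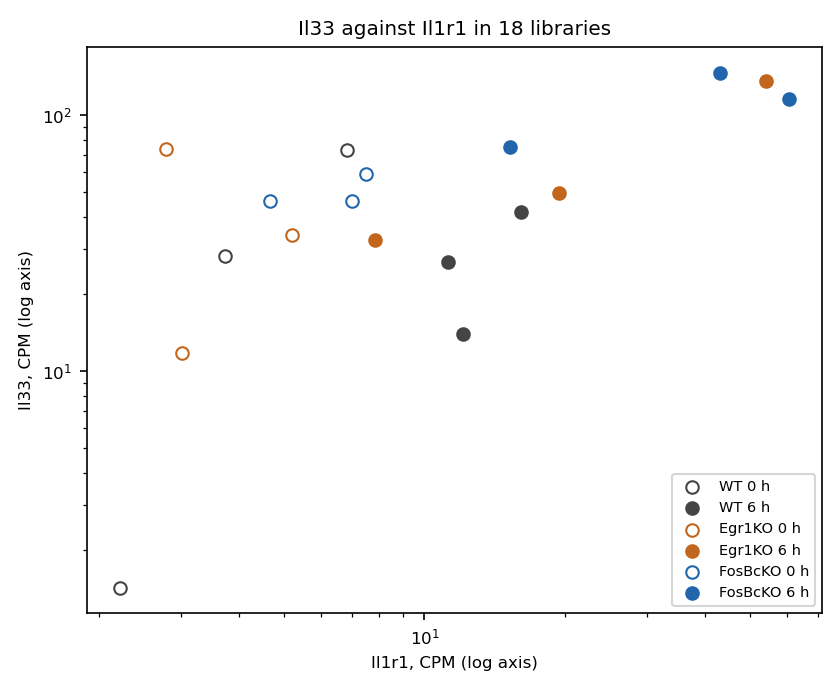
Il33 against Il1r1 in the 18 libraries, in CPM on log axes, by genotype (color) and time (open 0 h, filled 6 h). The 6 h libraries lie to the right of 7.5 CPM of Il1r1, 3 knockout libraries at 6 h hold both genes at or above 43.0 and 115.5 CPM, and WT at 0 h replicate 2 lies lowest at 2.22 and 1.42 CPM.

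The genes whose log2 CPM followed these genes most closely over the 18 libraries were found among 17469 genes. For Il1a the closest was ENSMUSG00000038067 (r = 0.929, mean rise 10.58 on the log2 scale), and for Il1r1 it was ENSMUSG00000052942 (r = 0.964, mean rise 1.70). For Il18 it was ENSMUSG00000044707 (r = 0.914), which fell by 1.30 on the log2 scale, and the third closest was ENSMUSG00000030087 (r = 0.904), which fell by 1.65. The closest gene reached r = 0.966 for Il33 and 0.805 for Il1b. The deposited tables do not pair these IDs with names.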

How the data were processed

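The authors prepared paired-end libraries from ribodepleted RNA with a strand-specific kit (Takara SMARTer Stranded Pico v2), aligned reads with Hisat2 and assigned them to Ensembl genes by HTSeq-count (union mode). What they deposited are unnormalized counts per gene. Lines of the tables that are not genes entered neither library sizes nor fits. Their shares of a library were: pairs outside genes 8.03% to 30.47%, unaligned 8.25% to 18.01%, not unique 3.80% to 5.41%, low quality 2.76% to 3.84%, ambiguous 0.94% to 1.37%. No molecular identifiers were stated, so intervals cover counting error only. The replicates are pools of capsules, so p-values measure the spread between pools.

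Tests used edgeR 4.0.16 in R 4.3.3 with filterByExpr, TMM scaling (trimmed mean of M values), robust dispersions and Benjamini-Hochberg FDR over all genes tested. Changes over time used the quasi-likelihood F-test and knockouts against WT the exact test (SE from the quasi-likelihood fit), each on the 6 libraries compared. Interactions and the mean over genotypes used all 18. CPM were counts over assigned pairs. Log2 CPM for correlations had a prior count of 2, and the 3 most similar genes were sought for each gene with an average log2 CPM of at least 0. A group at 0 was given a floor of 3 counts over the group, and ratios of few counts exact 95% intervals. Ratios to that floor take the 6 h counts as exact and have no interval.

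Alternatives were another edgeR test, DESeq2 1.42.0, RLE size factors, no filter or at least 10 counts in 3 libraries, no fold minimum, all 18 libraries in one fit, replicate number as a block, each library left out, and, added after the data were seen, library totals in place of TMM. The tests were checked on simulated data. The RefSeq table (GRCm38.p6) matched 0 of 55416 IDs by Ensembl ID and served only for which genes neighbor each other. The 9 genes were named by the IDs that defined them. Lists of other pathway genes, cell type markers, Egr1 and Fosb, which had been planned through names in the study's supplement, are not analysed here. The genes and lists were chosen with earlier results of these data known.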

Additional observations from a re-analysis of the deposited data

Results flagged for a closer look

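The fraction of a library that fell outside annotated genes, which enters no comparison above, was higher at 6 h PCS than at 0 h in each genotype. In WT it averaged 25.44% ± 1.87 at 6 h against 17.8% ± 2.37 at 0 h (SD, n = 3). In Egr1KO it averaged 21.49% ± 2.19 against 11.19% ± 2.21, and in FosBcKO 26.27% ± 3.72 against 13.15% ± 6.82. This share moved with time in the same direction as Il1a, Il1r1 and Tnf, and its part in their changes was not tested.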

How the results depend on the processing

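Of 235 alternatives for the genes called above, 191 kept the call, 44 lost it and 0 changed direction. Of 756 alternatives for genes that had a main test and were not called, 721 stayed as they were, 6 passed the threshold and 29 changed direction. Both counts include the setting without a fold minimum, which reuses the main fit and so could not lose a call or change direction. Genes without a main test are not in these counts, and some of their fits were called, such as Il1a in WT and Tnf in FosBcKO over time. The cause was not tested unless stated. In WT over time, 2 genes were called without a filter (Il1a, FDR = 0.00206, joined Il1r1) and 2 in the fit of all 18 libraries (Il1a, FDR = 0.00454, and Tnf, FDR = 0.0354, with Il1r1 lost). In FosBcKO against WT at 6 h, the quasi-likelihood F-test left 1 call (Il33), and the fit of all 18 libraries left 0. Without a filter, 1 interaction was called for each knockout, Il33 (FDR = 0.00248 for Egr1KO and 0.000197 for FosBcKO), in fits that called 0.75% and 1.15% of 35202 genes. Leaving out 1 library moved the number of genes called to 0 to 2 in WT over time, 0 to 3 in Egr1KO over time, 2 to 4 in FosBcKO over time, 0 to 3 in Egr1KO against WT at 6 h, 1 to 3 in FosBcKO against WT at 6 h and 3 to 5 in the mean over genotypes. It stayed 0 in the other comparisons. Il1rn was called in the mean over genotypes without a filter (3.65, FDR = 0.0149) and in 14 of 16 fits without 1 library. It entered those 16 only through its 6 h counts: 2 in WT, 32 in Egr1KO and 10 in FosBcKO.

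Changes of direction all concerned genes that were not called. With library totals in place of TMM, Il1b over time in WT was 0.07, Il1a in Egr1KO against WT at 6 h was -0.09, and the Egr1KO interaction of Il18 was -0.10. Library totals moved the median of all genes by 0.111 in WT over time, by -0.214 in Egr1KO and -0.125 in FosBcKO against WT at 6 h, and by -0.142 in the Egr1KO interaction. With DESeq2 the FosBcKO interaction of Tnf was 0.45. Leaving out 1 library gave log2 ranges that crossed 0 for Il1b (-0.50 to 0.32) and Il33 (-1.0 to 0.75) over time in WT. In Egr1KO against WT at 0 h they were -0.21 to 0.64 for Il1b, -0.54 to 0.32 for Il1r1, -0.49 to 1.44 for Il33 and -0.02 to 0.31 for Il18. They were -0.19 to 0.50 for Il1a in Egr1KO against WT at 6 h and -0.12 to 0.18 for Il18 in FosBcKO against WT at 0 h. The Egr1KO interaction ranged from -1.23 to 6.02 for Il1r2, -0.21 to 0.35 for Il18 and -3.89 to 0.93 for Tnf. The FosBcKO interaction ranged from -1.48 to 3.68 for Il1a, -1.82 to 3.00 for Il1r2 and -0.94 to 1.41 for Tnf.

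Same-numbered libraries deviated together with correlations of -0.295 to 0.29, over 0.1 in 8 of 21 pairs. They passed 0.1 in all 3 pairs of none of the 7 comparisons, so the main tests did not use the numbers as pairs. Some of these comparisons set a knockout against WT, where the libraries hold different animals and cannot be pairs of eyes. Over time all correlations were positive, at 0.091 to 0.29 for WT, 0.093 to 0.237 for FosBcKO and 0.028 to 0.173 for Egr1KO. The main tests over time may thus leave out a real pairing. Whether pools of the same number at 0 h and 6 h hold the eyes of the same animals is not stated in the sources used here. As a hint from the data, all 6 libraries correlated best with their own number in WT and in FosBcKO over time, and 4 of 6 in Egr1KO. With the replicate number as a block, 0 genes were called in FosBcKO against WT at 6 h (FDR = 0.102 for Il33, 0.282 for Il1r1 and 0.246 for Il1b), Il33 over time was called in Egr1KO (1.01, FDR = 0.0234), Il1b and Il33 over time in WT were 0.12 and 0.32, and the Egr1KO interaction of Il18 was -0.02. For knockouts against WT the block fit also used the quasi-likelihood F-test in place of the exact test, so its lost calls cannot be assigned to the block. Depth limits Tnf, Il1r2, Il1rn and Il1rl1, which had at most a few counts in most 0 h libraries.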
